A study of Schmidtea mediterranea with 36 samples.

Results

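Protein disulfide isomerases were followed through 4 transcripts, out of 26558 in the tables: pdia13 (dresden_comp10003_c0_seq1), pdia3 (dresden_comp1164_c0_seq1), a transcript matched to human PDIA2 (dresden_comp1893_c0_seq1) and a transcript matched to human PDIA5 (dresden_comp821_c0_seq1). They were chosen by the names that the study's tables give them. The names pdia13 and pdia3 come from a table on other libraries. The PDIA2 and PDIA5 matches come from the study's lists of protein folding transcripts that were lower in starved X1 cells, where they carry the numbering of another version of the assembly and were paired with the tables by transcript number. A further 5 transcripts with a protein disulfide isomerase name are described after the members.

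Protein disulfide isomerases are enzymes of the endoplasmic reticulum (ER) that form, break and rearrange the disulfide bonds of newly made secreted and membrane proteins, through thioredoxin-like domains. Many of their genes are targets of the unfolded protein response, the pathway that raises ER chaperones when unfolded proteins build up in the ER. Family members differ in their partners and in their place: some work on glycoproteins beside the lectin chaperones calnexin and calreticulin, some are anchored in the ER membrane, and some are made mainly in secretory tissues.

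The libraries were made from cells of asexual Schmidtea mediterranea, a freshwater planarian that regenerates from a pool of adult stem cells, sorted by FACS into 3 populations. X1 cells are stem cells in S and G2/M phases, X2 cells are a mixed gate of stem cell progeny and stem cells in G0/G1, and Xins cells are differentiated cells that resist irradiation. Planarians had been starved for 1, 7 or 30 days (1dS, 7dS and 30dS), which gives 9 groups of 4 libraries and 36 libraries in all. All groups share the asexual strain, and the labels name no agent or allele. The 1dS animals are the most recently fed, and serve as the reference for starvation. The sources used here do not say whether populations with 1 replicate number came from the same animals, so the p-values below measure the spread between these libraries.

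The values are TPM, an estimate of transcript abundance per unit of transcript length, that the authors normalized within each population. Times within a population were compared on these values, called normalized TPM here. Populations were compared after each library had been rescaled to a total of 1000000, and those values are called rescaled TPM. Library totals before rescaling ran from 638389 to 1935392, and the read depth behind them is unknown. The X1 label was checked with cdk1, a kinase of cycling cells, which stood between 38.4 and 78.6 rescaled TPM in X1 libraries, between 1.202 and 9.34 in X2 libraries and between 0 and 0.270 in Xins libraries. Libraries numbered 4 stood apart from the others of their groups in many transcripts, as described with pdia3 below, so that a call that changed without them is given with both values. These are bulk samples of sorted cells, in which fewer cells of a type and less RNA per cell cannot be told apart.

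The 4 transcripts had different distributions over the populations. pdia13 and PDIA5 were lowest in X1 and highest in Xins. PDIA2 had the reverse order of X1 and Xins and was close to undetected in X2. pdia3 was abundant in all populations and was not called in any comparison between populations.

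**Figure D1:**
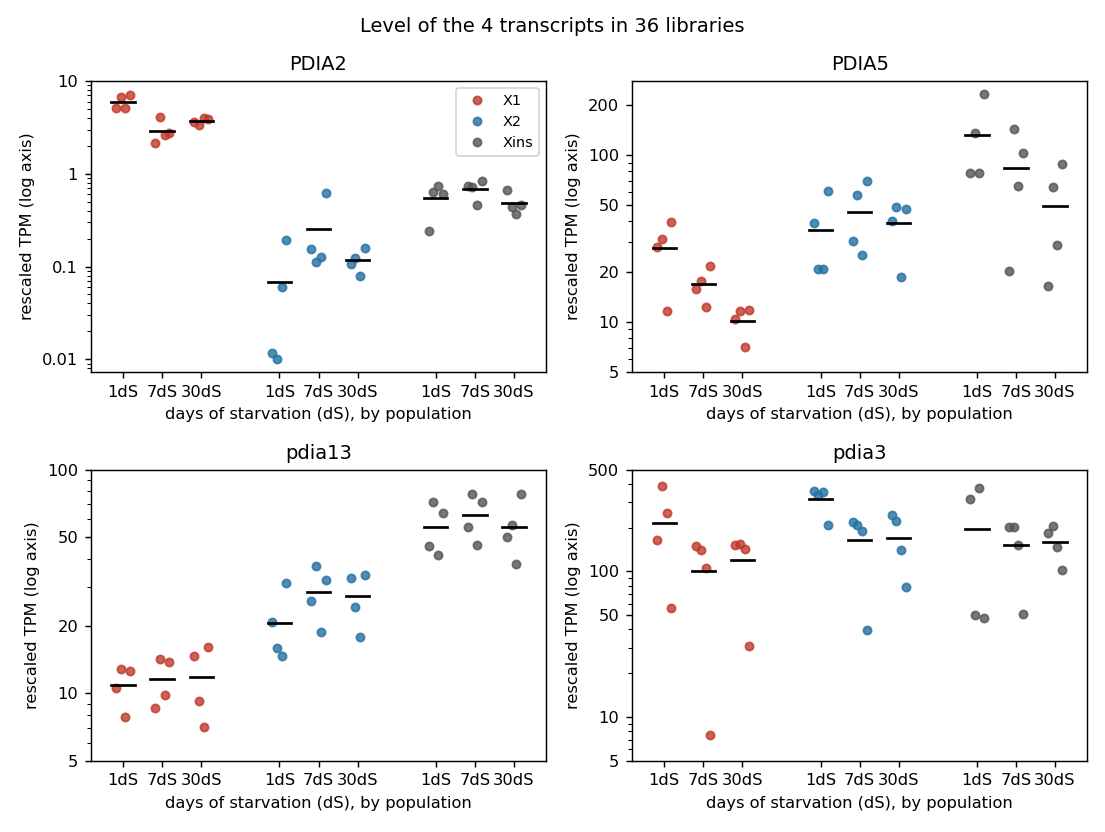
Rescaled TPM of pdia13, pdia3, PDIA2 and PDIA5 on a log axis, by population (X1, X2, Xins) and days of starvation, with 1 point per library and a bar at the group mean (n = 4). pdia13 lies between 7.07 and 16.05 in all X1 libraries and between 37.9 and 77.8 in all Xins libraries, PDIA2 is above 2 in X1 libraries only, and pdia3 lies between 7.52 and 386 over all libraries.

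Between populations, a transcript was called at a Benjamini-Hochberg adjusted p under 0.01 in limma. In X1 against Xins, 1 of the 4 transcripts was called higher and 2 were called lower at each time. The shares of all tested transcripts called were 16% higher and 37.4% lower at 1dS, 14.3% and 41% at 7dS, and 15.3% and 42.1% at 30dS, so that calls in this comparison were common. In X2 against Xins, none was called higher and 2, 1 and 0 were called lower at 1dS, 7dS and 30dS, against 31.8%, 31.9% and 28.5% of all transcripts. In X1 against X2, 1 was called higher at each time, against 3.33%, 5.34% and 5.51% of all transcripts, and 0, 1 and 1 were called lower, against 5.06%, 15.8% and 19.9%. The member called higher was PDIA2 in each case. It passed the filter on low values (a mean of at least 1) at each time through its X1 level alone, and its 6 calls were also made with no filter.

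Rescaling to equal totals left the median of all tested transcripts below 0 in these comparisons. On the log2 scale it was -0.56, -0.67 and -0.76 in X1 against Xins at 1dS, 7dS and 30dS, -0.43, -0.47 and -0.28 in X2 against Xins, and -0.11, -0.18 and -0.41 in X1 against X2. The differences of X1 from Xins for pdia13 and PDIA5 are therefore also given relative to this median. Other differences between populations are to be read against it. Where libraries of a member did not overlap between populations, the share of all transcripts that did not overlap is not given here. Such a separation is therefore a description of the values and not a trait particular to the member.

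The member with the steadiest distribution was pdia13, named after human PDIA13, also called TMX3, an isomerase anchored in the ER membrane. In rescaled TPM, X1 libraries held 10.6, 12.8, 7.82 and 12.6 at 1dS, 8.59, 14.2, 9.84 and 13.8 at 7dS, and 14.8, 9.25, 7.07 and 16.05 at 30dS. X2 libraries held 20.9, 15.9, 14.7 and 31.2 at 1dS, 25.9, 37.1, 18.8 and 32.3 at 7dS, and 32.8, 24.3, 17.8 and 33.9 at 30dS. Xins libraries held 45.5, 71.5, 41.8 and 63.9 at 1dS, 55.3, 77.8, 45.9 and 71.9 at 7dS, and 49.8, 56.4, 37.9 and 77.6 at 30dS. Every X1 library was below every X2 library of the same time, and every X2 library was below every Xins library. Ordered by their means, the 9 groups ran through X1 (10.9 to 11.8), X2 (20.7 to 28.5) and Xins (55.4 to 62.7), and the step from X2 7dS to Xins 30dS was the only one between neighbours whose libraries did not overlap.

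By limma, pdia13 was lower in X1 than in Xins by log2 differences of -2.23 ± 0.28 at 1dS, -2.34 ± 0.26 at 7dS and -2.16 ± 0.30 at 30dS (± SE, Benjamini-Hochberg adjusted p = 8.5e-06, 3.51e-06 and 3.68e-05), or -1.67, -1.66 and -1.40 relative to the median transcript. X2 was lower than Xins at 1dS (-1.41, limma adjusted p = 7.37e-04) and 7dS (-1.12, adjusted p = 0.00267). At 30dS X2 against Xins missed the threshold (-0.996, adjusted p = 0.0151) and passed it with the replicate number as a block (adjusted p = 2.84e-05) or without Xins replicate 3 (-1.16, adjusted p = 0.0087). X1 was lower than X2 at 7dS (-1.21, limma adjusted p = 0.00316) and 30dS (-1.16, adjusted p = 0.00917), and at 1dS the difference of -0.82 was not called (adjusted p = 0.0664). Under median-of-ratios scaling the X1 against X2 differences were -0.92 (adjusted p = 0.0131) at 7dS and -0.54 (adjusted p = 0.046) at 30dS, and that of X2 against Xins at 7dS was -0.57 (adjusted p = 0.0802), so that these 3 calls were lost. The call of X1 against X2 at 30dS was also lost with no filter (adjusted p = 0.0163) and in a fit of those populations alone (adjusted p = 0.0138), and that of X2 against Xins at 30dS was gained under median-of-ratios scaling (-0.71, adjusted p = 0.00945). Without the libraries numbered 4, a setting chosen after seeing the data, the 7dS calls of X1 against X2 (adjusted p = 0.0122) and X2 against Xins (adjusted p = 0.0108) were lost too. Leaving out 1 library took the adjusted p for X1 against X2 over the threshold at 7dS (X1 replicate 1 or 3, X2 replicate 2 or 4, up to 0.0132) and at 30dS (X1 replicate 1, 2 or 3, X2 replicate 1, 2 or 4, up to 0.0323), and that for X2 against Xins at 7dS (Xins replicate 2, 0.0113).

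Starvation changed pdia13 in none of the populations by the test used. In X1 cells, the normalized TPM were 10.5, 11.8, 10.2 and 10.1 at 7dS and 13.5, 10.4, 9.09 and 11.6 at 30dS, against 9.80, 15.1, 11.3 and 11.0 at 1dS. The log2 changes were -0.12 (95% interval -0.47 to 0.22, limma adjusted p = 0.697) and -0.07 (-0.42 to 0.28, adjusted p = 0.843). In X2 cells the changes were 0.06 (interval -0.35 to 0.47) at 7dS and -0.05 (-0.46 to 0.36) at 30dS. In Xins cells, the 30dS libraries held 50.1, 52.5, 55.3 and 50.8 normalized TPM, against 74.2, 65.1, 59.7 and 56.8 at 1dS, and did not overlap them. This change of -0.28 (interval -0.60 to 0.04) was not called (limma adjusted p = 0.361), nor was that of -0.24 at 7dS (adjusted p = 0.463). The sign of these small changes depended on the scaling: after rescaling to equal totals they were positive in X1 at both times (0.07 and 0.05), in X2 at both times (0.46 and 0.40) and in Xins at 7dS (0.18).

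The most abundant member was pdia3, named after human PDIA3 (ERp57), which works with calnexin and calreticulin on glycoproteins. Its group means stood between the 95.5 and 98.5 percentiles of all transcripts, and its median share of the summed level of the 4 members ran from 45.7% in Xins 1dS to 88.0% in X2 1dS. Its libraries differed widely within every group. In normalized TPM, X1 libraries 1 to 4 held 184, 117, 109 and 5.48 at 7dS and 138, 175, 184 and 22.2 at 30dS, against 152, 455, 367 and 49.1 at 1dS. X2 libraries held 219, 175, 228 and 27.9 at 7dS and 184, 223, 171 and 52.8 at 30dS, against 476, 366, 684 and 171 at 1dS. Xins libraries held 209, 155, 176 and 32.8 at 7dS and 184, 190, 216 and 67.3 at 30dS, against 515, 45.9, 535 and 42.6 at 1dS.

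The library numbered 4 was the lowest for pdia3 in all 9 groups. The mean of the other 3 libraries was 2.92 to 24.9 times that of library 4, with the widest gap in X1 7dS. Of the 7980 transcripts that averaged 10 rescaled TPM or more, 253 (3.17%) were lowest in library 4 of all 9 groups and 653 (8.18%) were highest there, so that libraries numbered 4 stood apart in many transcripts and in both directions. They were not alone in this: 228 (2.86%) were lowest in library 3 of all 9 groups and 10 (0.125%) were highest there. In rescaled TPM, pdia13 was lowest in library 3 in 8 groups and PDIA5 in 7. Libraries numbered 3 were not left out as a set. In Xins 1dS, replicate 2 (45.9) was nearly as low for pdia3 as replicate 4 (42.6). What sets these libraries apart was not tested.

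**Figure D2:**
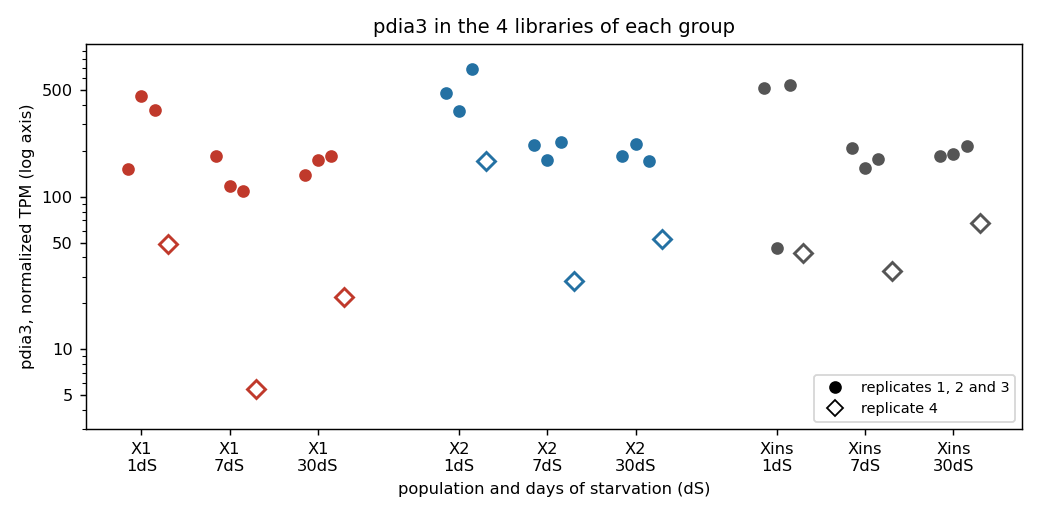
Normalized TPM of pdia3 on a log axis, by population and days of starvation, with 1 point per library and the library numbered 4 drawn as an open diamond. The diamond is the lowest point of all 9 groups, at 5.48 in X1 7dS against 109 to 184 in the other 3 libraries of that group.

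With all libraries and no replicate block, pdia3 was not called with starvation in any population. The calls that a block added in X1 and X2 are given with the processing alternatives. The log2 changes at 7dS were -1.59 (95% interval -3.89 to 0.71, limma adjusted p = 0.392) in X1, -1.58 (-3.02 to -0.14, adjusted p = 0.151) in X2 and -0.38 (-2.34 to 1.57, adjusted p = 0.891) in Xins. At 30dS they were -0.91 (adjusted p = 0.681) in X1, -1.44 (adjusted p = 0.170) in X2 and -0.03 (adjusted p = 0.994) in Xins, again by limma. These intervals reach several-fold changes, so that a change of that size could not be told from none. The X2 result changed when library 4 was left out. With all libraries numbered 4 left out, pdia3 was lower in X2 at 7dS (-1.25, limma adjusted p = 0.0188) and at 30dS (-1.36, adjusted p = 0.0119). This setting was chosen after seeing the data, in which library 4 was the lowest for pdia3 in every group. Leaving out its lowest values narrows the spread, so that these calls are not independent evidence. Without X2 1dS replicate 4 alone, the changes were -1.96 (adjusted p = 0.07) at 7dS and -1.82 (adjusted p = 0.0808) at 30dS. At each time this was the only 1 of 8 fits leaving out 1 library that called pdia3. Over the 8 fits the change was as small as -0.87 at 7dS and -0.98 at 30dS, with limma adjusted p up to 0.326 and 0.386.

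Between populations pdia3 was not called. In rescaled TPM the means were 215 ± 140 in X1, 315 ± 71.0 in X2 and 197 ± 172 in Xins at 1dS, and 120 ± 59.7, 171 ± 76.4 and 159 ± 44.2 at 30dS (SD, n = 4 each). Among the 9 groups in order of their means, from X1 7dS (101) to X2 1dS (315), every group overlapped its neighbour. With the replicate number as a block, X1 was lower than Xins at 7dS (-1.02, limma adjusted p = 0.00813, against adjusted p = 0.329 without the block). The sign of X1 against Xins at 30dS depended on the scaling, at -0.60 after rescaling to equal totals and 0.35 under median-of-ratios scaling, with neither called.

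PDIA2, in mammals an isomerase made mainly in the pancreas, was the scarce member, and the one that was highest in X1 stem cells. In rescaled TPM, X1 libraries held 5.10, 6.72, 5.08 and 7.02 at 1dS, 2.17, 4.12, 2.62 and 2.77 at 7dS, and 3.62, 3.38, 4.02 and 3.91 at 30dS. X2 libraries ran from 0.0101 to 0.625 and Xins libraries from 0.240 to 0.827 over the 3 times. Every X1 library was thus above every X2 and every Xins library at all times. The X1 means stood between the 62.5 and 74.0 percentiles of all transcripts, against 11.2 to 19.2 in X2 and 25.2 to 28.6 in Xins.

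On the log2(value + 1) scale, which understates the difference of low transcripts, PDIA2 was higher in X1 than in Xins by 2.17 ± 0.24 at 1dS, 1.197 ± 0.21 at 7dS and 1.68 ± 0.15 at 30dS (± SE, limma adjusted p = 2.06e-06, 2.40e-04 and 8.39e-07). Against X2 it was higher by 2.70, 1.64 and 2.08 (limma adjusted p = 1.47e-05, 7.01e-05 and 1.11e-06). PDIA2 entered these tests through its X1 level alone, which is the level being compared. X2 against Xins was not called at any time, with differences of -0.53, -0.44 and -0.40 (limma adjusted p = 0.0748, 0.104 and 0.0453). Of these, the differences at 1dS and 30dS were called with a pseudocount of 0.1 in place of 1, at -2.001 (adjusted p = 0.00487) and -1.41 (adjusted p = 0.00164). X2 and Xins both lay under the filter's mean of 1, so that these calls rest on values near 0 and depend on the pseudocount.

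In X1 cells PDIA2 was lower after starvation. Normalized TPM fell to 2.65, 3.41, 2.72 and 2.02 at 7dS and to 3.29, 3.81, 5.17 and 2.82 at 30dS, against 4.72, 7.92, 7.35 and 6.13 at 1dS. No 7dS library reached the lowest 1dS library, while 1 of the 30dS libraries lay above it. The log2 changes were -1.02 ± 0.20 at 7dS (limma adjusted p = 0.0122) and -0.66 ± 0.20 at 30dS (adjusted p = 0.0737), and 30dS against 7dS was not called (0.36, adjusted p = 0.938). The 7dS direction is not independent evidence, since the study took this transcript from its list of folding transcripts lower in X1 at 7dS. The 7dS call was kept under every alternative run. The 30dS call was lost with no filter (adjusted p = 0.12), after rescaling to equal totals (adjusted p = 0.246), with quantile normalization (adjusted p = 0.185), in a fit of 2 times alone (adjusted p = 0.126), without the libraries numbered 4 (adjusted p = 0.198) and in 6 of 8 fits that left out 1 library (1dS replicate 2, 3 or 4, 30dS replicate 1, 2 or 4, adjusted p up to 0.175).

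In the other populations PDIA2 was below the filter and was compared by exact two-sided permutation tests over 4 against 4 libraries, whose smallest possible p is 0.0286. X2 libraries held 0.155, 0.0929, 0.151 and 0.44 normalized TPM at 7dS and 0.0813, 0.123, 0.0967 and 0.108 at 30dS, against 0.0154, 0.0109, 0.117 and 0.158 at 1dS (exact p = 0.2 and 0.4). Xins libraries held 0.768, 0.56, 0.537 and 0.528 at 7dS and 0.667, 0.41, 0.537 and 0.298 at 30dS, against 0.392, 0.582, 1.05 and 0.539 at 1dS (exact p = 0.771 and 0.4). Neither population separated the times.

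The response of PDIA2 was also compared between populations with an interaction term in limma over the 36 libraries. PDIA2 passed the filter here through its X1 level alone, and its values in Xins and X2 lie near 0, where the log2(value + 1) scale leaves little room for a fall, so that this term largely restates the fall in X1. The change at 7dS in X1 minus that in Xins was -0.97 ± 0.23 (adjusted p = 0.0353), and minus that in X2 it was -1.06 ± 0.23 (adjusted p = 0.0161). PDIA2 was the only member called, and 1.14% and 1.27% of all transcripts were called lower in these comparisons. In X2 against Xins at 7dS no member was called, against 2.3% of all transcripts. With a pseudocount of 0.1 the difference from Xins was -1.35 and was not called (adjusted p = 0.502), and without the libraries numbered 4 neither was called (-0.87, adjusted p = 0.224, against Xins and -0.90, adjusted p = 0.121, against X2). At 30dS no member was called, against 1.91%, 3.46% and 2.72% of all transcripts in X1 against Xins, X2 against Xins and X1 against X2.

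PDIA5, whose human counterpart has been linked to the activation of ATF6, a sensor of unfolded ER proteins, was called lower with starvation in X1 and, with less support, in Xins. In normalized TPM, X1 libraries held 19.2, 14.6, 12.8 and 15.7 at 7dS and 9.41, 13.0, 9.04 and 8.51 at 30dS, against 25.8, 36.8, 16.7 and 34.5 at 1dS. At 30dS every X1 library was below every 1dS library, while at 7dS the highest library lay above the lowest of 1dS. The log2 changes were -0.78 ± 0.24 at 7dS (limma adjusted p = 0.0652) and -1.38 ± 0.24 at 30dS (adjusted p = 0.00846), and 30dS against 7dS was not called (-0.59, adjusted p = 0.938). Both directions in X1 are not independent evidence, since the study took the transcript from its lists for these 2 comparisons. The 30dS call held under every alternative run. The 7dS call was lost with no filter (adjusted p = 0.108), after rescaling (adjusted p = 0.393), with 2 times alone (adjusted p = 0.125), without the libraries numbered 4 (adjusted p = 0.198) and in 5 of 8 fits that left out 1 library (1dS replicate 2 or 4, 7dS replicate 2, 3 or 4, adjusted p up to 0.168).

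The study's lists that name PDIA5 compared X1 libraries, but members were chosen with earlier results of these data known. The Xins and X2 values may therefore not be free of that choice. Xins libraries 1 to 4 held 21.0, 111, 75.5 and 65.7 normalized TPM at 7dS and 16.6, 60.1, 42.0 and 57.9 at 30dS, against 128, 123, 111 and 207 at 1dS. All 30dS libraries were below all 1dS libraries, and at both later times replicate 1 was the lowest. The change at 30dS was -1.77 ± 0.50 (limma adjusted p = 0.0767), and that at 7dS was -1.22 ± 0.50 and was not called (adjusted p = 0.236). With the replicate number as a block the 7dS change in Xins passed the threshold (adjusted p = 0.0295). The 30dS call was lost with no filter (adjusted p = 0.121), after rescaling (adjusted p = 0.252), with quantile normalization (adjusted p = 0.156), without the libraries numbered 4 (adjusted p = 0.154) and in 7 of 8 fits that left out 1 library (all but 30dS replicate 4, adjusted p up to 0.222).

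In X2 cells PDIA5 held 30.2, 48.0, 30.5 and 49.0 normalized TPM at 7dS and 30.5, 48.8, 22.8 and 32.1 at 30dS, against 51.4, 22.6, 40.3 and 49.9 at 1dS, with overlap at both times. The changes were -0.03 (95% interval -0.68 to 0.63, limma adjusted p = 0.967) and -0.27 (-0.92 to 0.39, adjusted p = 0.591). The difference in response between populations was not called for PDIA5 in the fit without a replicate block: the change at 30dS in X1 minus that in X2 was -1.44 (interval -2.93 to 0.06, limma adjusted p = 0.538), and that in X2 minus that in Xins was 1.69 (0.19 to 3.18, adjusted p = 0.319).

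Across populations, PDIA5 rescaled TPM at 1dS were 27.9, 31.2, 11.5 and 39.5 in X1, 38.8, 20.9, 20.8 and 61.2 in X2, and 78.3, 135, 77.5 and 233 in Xins. Both X1 and X2 lay below every Xins library. X1 was lower than Xins by -2.18 ± 0.46 at 1dS, -1.96 ± 0.51 at 7dS and -1.92 ± 0.47 at 30dS (± SE, limma adjusted p = 7.39e-04, 0.00419 and 0.00286), or -1.61, -1.28 and -1.17 relative to the median transcript. The 7dS call was lost with no filter (adjusted p = 0.0105), and the 7dS and 30dS calls were lost under median-of-ratios scaling (-1.10, adjusted p = 0.025, and -1.01, adjusted p = 0.0322) and without the libraries numbered 4 (adjusted p = 0.0147 and 0.0103). They were also lost on leaving out 1 library, at 7dS X1 replicate 1 or 3 or Xins replicate 2, 3 or 4 (adjusted p up to 0.0157) and at 30dS X1 replicate 3 or Xins replicate 2 (up to 0.0113). X2 was lower than Xins at 1dS (-1.85, limma adjusted p = 0.00329, 0.0121 with no filter, and up to 0.0130 without X2 replicate 2 or 3 or Xins replicate 4), and at 7dS and 30dS the differences were -0.66 (adjusted p = 0.314) and -0.16 (adjusted p = 0.821).

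The groups of PDIA5 that stood furthest apart were X1 30dS and Xins 1dS. X1 30dS libraries held 10.3, 11.6, 7.02 and 11.8 rescaled TPM, the lowest mean of all groups (10.2 ± 2.21), and did not overlap the next group, X1 7dS (16.8 ± 3.85). On normalized TPM, the scale used to compare times, these 2 groups did overlap. The change between them was not called there (-0.59, limma adjusted p = 0.938). The highest mean was that of Xins 1dS (131 ± 73.0, SD, n = 4 each). X1 against X2 missed the threshold at 7dS (-1.30, limma adjusted p = 0.0730) and 30dS (-1.77, adjusted p = 0.0105), although no libraries overlapped at either time, and passed it with the replicate number as a block (adjusted p = 0.00524 and 3.49e-04). The 30dS difference also passed in a fit of X1 and X2 alone (adjusted p = 0.00194), and without X2 replicate 3 it was -2.08 (adjusted p = 0.00476).

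Counted over the members, starvation calls (adjusted p under 0.1) ran in 1 direction only. In X1, 0 of 4 were called higher and 2 (PDIA2 and PDIA5) lower at both 7dS and 30dS, against 6.77% and 5.43% of all tested transcripts called higher and 6.92% and 4.36% called lower. Members whose libraries did not overlap, all of the later time being lower, were PDIA2 at 7dS and PDIA5 at 30dS, against 7.82% and 6.58% of all transcripts. PDIA2 and PDIA5 came from the study's lists of folding transcripts lower in starved X1 cells. These X1 counts and their direction are therefore not independent evidence. In X2, 0 of 3 tested were called at either time, against 16.4% and 20.7% called in either direction. In Xins, 0 of 3 were called at 7dS, against 5.11%, and 1 (PDIA5) was called lower at 30dS, against 3.85%. The libraries of pdia13 and PDIA5 did not overlap in Xins at 30dS, the later ones being lower, against 6.04% of all transcripts. None was called in 30dS against 7dS in any population, where 0.00754% in X1, 0.127% in X2 and 0.141% in Xins of all transcripts were. The level of cdk1 was lower in X2 after starvation (log2 changes of -1.79 at 7dS and -1.38 at 30dS, both called by limma), and its part in the X2 values was not tested.

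**Figure D3:**
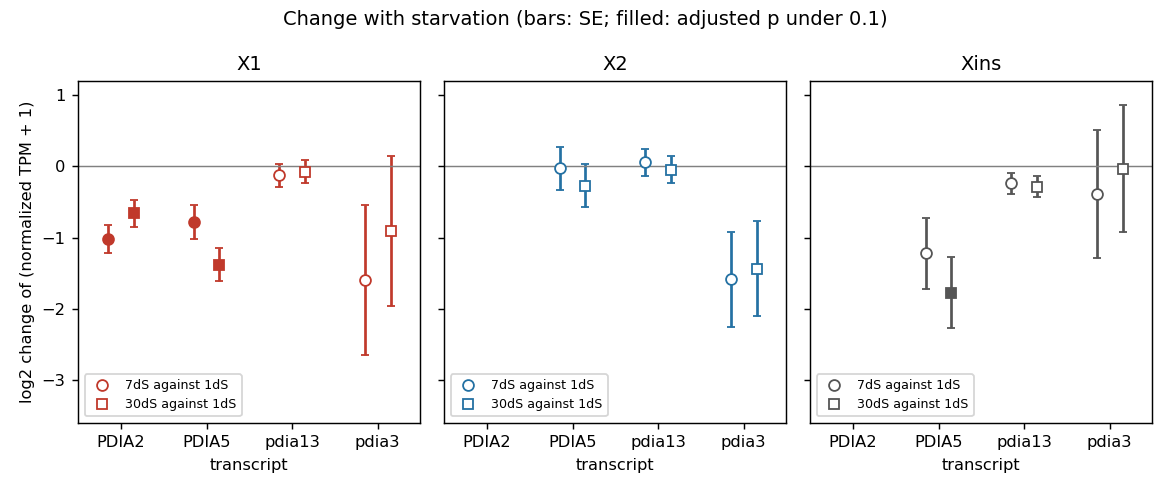
Log2 change in log2(normalized TPM + 1) at 7dS and 30dS against 1dS for the members, in a panel each for X1, X2 and Xins, with bars of ± 1 SE and filled points where the limma adjusted p is under 0.1 (n = 4 libraries per time). PDIA2 (-1.02 and -0.66) and PDIA5 (-0.78 and -1.38) are filled in X1, and PDIA5 at 30dS (-1.77) in Xins. PDIA2 is not shown in X2 and Xins, where it was below the filter.

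Over the 36 libraries the members did not share 1 pattern. The Pearson correlation of log2 rescaled TPM was 0.81 between pdia13 and PDIA5, -0.62 between pdia13 and PDIA2, -0.47 between PDIA2 and PDIA5, and between -0.26 and -0.05 for pdia3 and each of the others. After the group means were removed, the first stayed at 0.72, while those of PDIA2 with pdia13 and with PDIA5 turned to 0.43 and 0.25, so that their negative values came from the group means. Those of pdia3 were then -0.44 with pdia13, -0.31 with PDIA2 and -0.43 with PDIA5. These are descriptions, since the libraries share populations and composition. Among transcripts with a name in the study's tables, the closest to pdia13 were SH3GLB1 (r = 0.96), DNAJC27 (0.94) and bt (0.92), and the closest to PDIA5 were SH3GLB1 (0.85), dnajc3 (0.84), an ER cochaperone, and TUBA1A (0.84). For PDIA2 they were NARS2 (0.84), TUBB4B (0.83) and cdk1 (0.78), and for pdia3 FARSA (0.61), ACTB (0.56) and NARS (0.52). Of about 7980 transcripts at this level, 265 had a higher r with pdia13 than SH3GLB1, 23 a higher r with PDIA5, 39 a higher r with PDIA2 than NARS2, and 134 a higher r with pdia3 than FARSA.

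Of the 5 other isomerase transcripts, 4 also came from the study's lists of folding transcripts lower in starved X1 cells, so that their X1 directions are not independent evidence. As with PDIA5, their X2 and Xins values may not be free of a choice made with earlier results known. The leading one was dresden_comp250_c0_seq1, matched to human P4HB, the classical isomerase that is also a subunit of the collagen prolyl hydroxylase. It took a median of 31.7% to 63.5% of the summed level of the 9 isomerase transcripts, by group. In X1 it held 87.4, 136, 78.6 and 143 normalized TPM at 7dS and 144, 118, 99.6 and 170 at 30dS, against 197, 224, 183 and 256 at 1dS. In Xins it held 251, 407, 225 and 359 at 7dS and 245, 304, 242 and 391 at 30dS, against 521, 920, 642 and 878 at 1dS. No starved library reached the lowest 1dS library in these 4 comparisons. Of all tested transcripts, 7.82% and 6.58% were separated in this direction in X1 at 7dS and 30dS, and 6.04% in Xins at 30dS. The share for Xins at 7dS is not given here.

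By limma, this P4HB transcript was lower in X1 at 7dS (-0.98, adjusted p = 0.0340) and in Xins at 7dS (-1.26, adjusted p = 0.0384) and 30dS (-1.31, adjusted p = 0.0256). In X1 at 30dS it was not called (-0.71, limma adjusted p = 0.117). In X2, where the libraries overlapped, the changes were -0.24 at both times (adjusted p = 0.644 and 0.622). With all libraries it was the only one of the 5 that was called in a comparison of times. X1 was lower than Xins at 1dS (-1.64, limma adjusted p = 0.00393) and lower than X2 at 7dS (-2.54, adjusted p = 0.00125) and 30dS (-2.39, adjusted p = 0.00139).

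A second P4HB match, dresden_comp13521_c0_seq1, was highest in X2 cells, with means of 11.5, 15.4 and 18.1 rescaled TPM at 1dS, 7dS and 30dS, against 2.32, 1.63 and 1.89 in X1 and 0.604, 0.762 and 0.645 in Xins. X2 was higher than Xins by 2.92, 3.11 and 3.44 (limma adjusted p = 3.52e-06, 5.59e-06 and 2.49e-06), and X1 was lower than X2 by -1.86, -2.57 and -2.68 (limma adjusted p = 0.00121, 8.74e-05 and 4.84e-05). The 2 further PDIA5 matches, dresden_comp1537_c0_seq1 and dresden_comp3506_c0_seq1, were called in no comparison with all libraries. Without the libraries numbered 4, both were lower in X1 at 30dS than at 1dS (-1.13, limma adjusted p = 0.0621, and -1.24, adjusted p = 0.0660, against -0.74 and -0.84 with all, adjusted p = 0.163 and 0.135). Both were then also higher in X2 than in Xins at 30dS (1.49, limma adjusted p = 0.00601, and 1.603, adjusted p = 0.00339), and comp3506 was lower in X1 than in X2 at 30dS (-1.56, adjusted p = 0.00616). Their levels ran together over the 36 libraries, with a ratio between 0.985 and 1.41 and a correlation of 0.99, so their separate values are uncertain if reads are split between near copies. The transcript pdia12 (dresden_comp6702_c0_seq1), named after human PDIA12 (TMX2), a membrane-bound relative, was lower in X1 at 30dS than in Xins (-0.78, limma adjusted p = 7.38e-04). It was also lower there than in X2 (-0.66, limma adjusted p = 0.00516). The medians of all tested transcripts were -0.76 and -0.41 in these comparisons, so that the difference from Xins was near that of the median transcript. Without the libraries numbered 4, pdia12 was also lower in X1 than in Xins at 7dS (-0.76, limma adjusted p = 0.00885, against 0.0152 with all). The median transcript was at -0.64 in that fit.

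**Figure D4:**
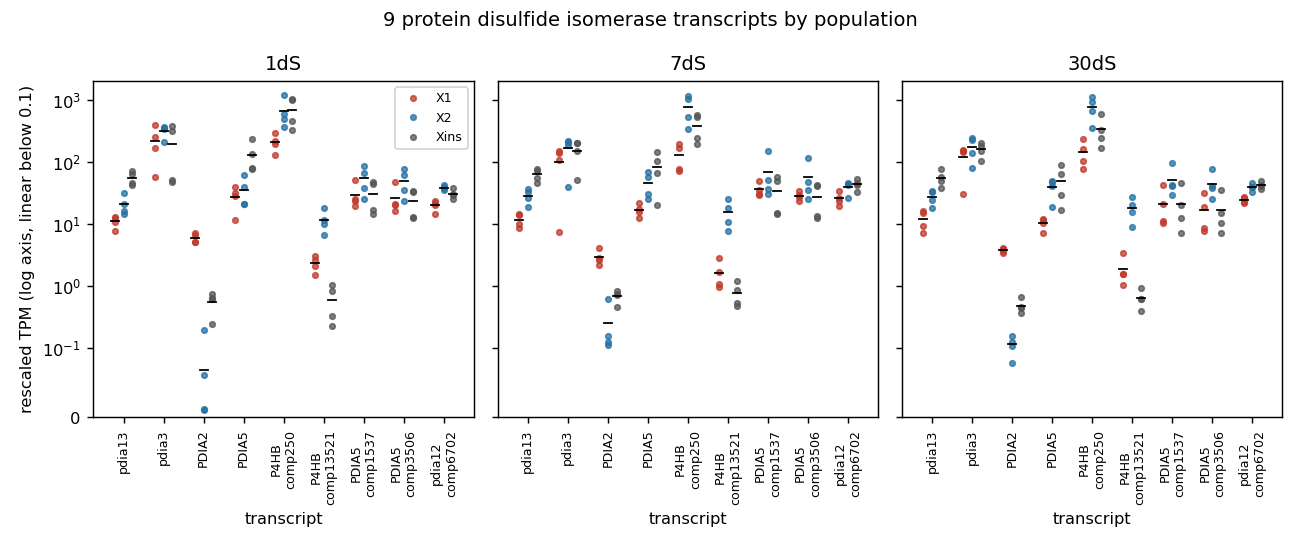
Rescaled TPM of the 9 isomerase transcripts in X1, X2 and Xins, in a panel each for 1dS, 7dS and 30dS, with 1 point per library and a bar at the group mean (n = 4), on an axis that is linear near 0 and logarithmic above. The P4HB transcript comp250 is the highest or among the highest in each panel, PDIA2 is the only one of the 9 with its highest mean in X1 at all 3 times, and comp13521 has its highest mean in X2 at all 3 times.

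ER chaperones and components of the unfolded protein response were counted from a list of 16 transcripts, of which 14 were tested. The study took 12 of the 16 from its lists of transcripts lower in starved X1 cells, so that the X1 counts are not independent evidence. The list was chosen with earlier results of these data known, so that the X2 and Xins counts may not be free of that choice. In X1, 9 were called lower and 2 higher at 7dS and 5 lower and 1 higher at 30dS, with median log2 changes of -0.80 and -0.53, against 0.04 and -0.07 over all tested transcripts, of which 6.92% and 4.36% were called lower and 6.77% and 5.43% higher. In X2, 5 were lower and 0 higher at both 7dS and 30dS (medians -0.49 and -0.55), against 0.05 and 0.04 over all and 6.79% and 8.19% of all called lower. In Xins, 7 were lower at 7dS and 8 at 30dS with 0 higher (medians -1.05 and -0.98), against 0.05 and -0.01 over all and 3.06% and 3.85% of all called lower. Without the libraries numbered 4, the counts of lower calls at 7dS and 30dS were 8 and 4 in X1, 3 and 5 in X2, and 7 and 9 in Xins.

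The leading case was bip-1, an HSP70 chaperone of the ER and a usual readout of the unfolded protein response, which was lower at 7dS and 30dS in X1 (-1.11 and -1.17, limma adjusted p = 0.0138 and 0.0134), in X2 (-0.92 and -1.04, adjusted p = 0.0916 and 0.0515) and in Xins (-1.32 and -1.43, adjusted p = 0.0456 and 0.0269). The X2 call at 7dS was lost without the libraries numbered 4 (-1.02, adjusted p = 0.101). HSP90B1, the HSP90 of the ER, averaged 71.4 ± 11.0 normalized TPM in X1 at 7dS, against 260 ± 125 at 1dS (-1.76, limma adjusted p = 0.00472, SD, n = 4 each), and was also lower in X1 at 30dS (-1.52, adjusted p = 0.0107). In Xins at 30dS it was called only without the libraries numbered 4 (-1.51, adjusted p = 0.0498, against -1.14 and 0.161 with all). The lectin chaperone calr was not called in any comparison, and in X1 it averaged 171 ± 33.2 at 7dS, against 251 ± 47.7 at 1dS (-0.56, adjusted p = 0.122). Against this direction, xbp1, a transcription factor of the unfolded protein response, was higher in X1 at 7dS, at 90.7 ± 4.92 normalized TPM against 54.1 ± 14.3 at 1dS (0.77, limma adjusted p = 0.0352). The sensor atf6 was not called with starvation in any population.

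Between populations, xbp1 had the order of pdia13 in part: X1 was lower than Xins by -2.37, -1.50 and -1.79 at 1dS, 7dS and 30dS and lower than X2 by -2.32, -2.27 and -2.68, all called by limma, while X2 against Xins was not called with all libraries and was called higher at 30dS without those numbered 4 (0.94, adjusted p = 0.00275, against 0.0116 with all). atf6 was lower in X1 at 7dS than in Xins (-1.54, limma adjusted p = 0.00482) and than in X2 (-1.70, adjusted p = 0.00632). Without the libraries numbered 4 the 7dS call against X2 was lost (adjusted p = 0.0101), and X1 was lower than X2 at 30dS (-1.80, adjusted p = 0.00624, against 0.0103 with all). A list of 8 further transcripts of cell redox homeostasis, which the study had chosen as lower in X1 at 7dS, had 8 called lower there by construction, 4 of 8 in X1 at 30dS, 2 and 4 of 6 tested in X2 at 7dS and 30dS, and 1 of 6 in Xins at each time. The shares of all transcripts called lower are those given for the ER list, and the caution on its X2 and Xins counts holds here too. Without the libraries numbered 4 the counts were 7 and 1 in X1, 3 and 3 in X2, and 1 and 0 of 7 tested in Xins.

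**Figure D5:**
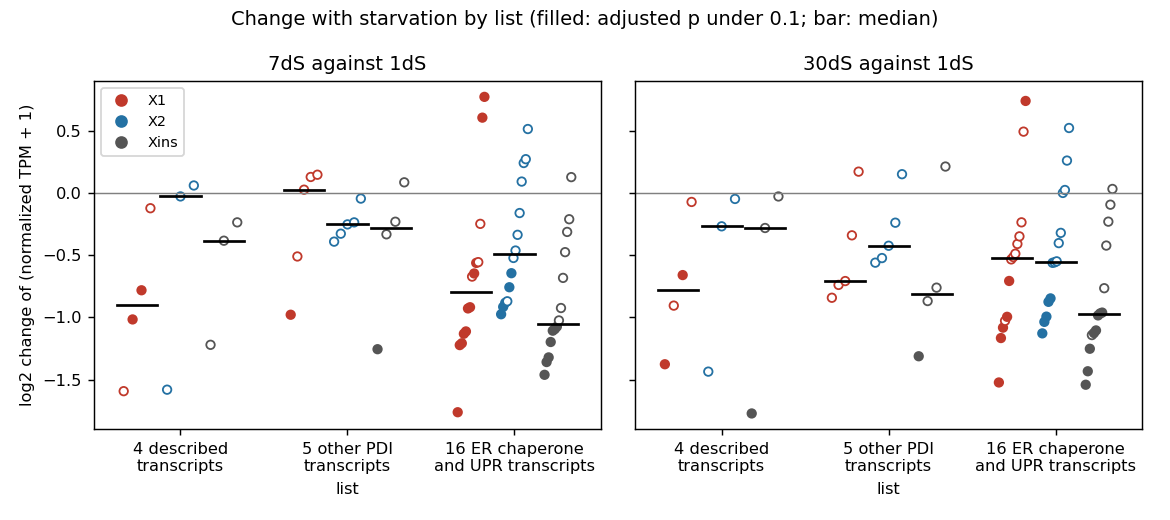
Log2 changes at 7dS and 30dS against 1dS in X1, X2 and Xins for the members, the other isomerase transcripts and the list of ER chaperones and unfolded protein response components, with 1 point per tested transcript, filled where called, and a bar at the list's median. The ER list has its median below 0 in all 6 comparisons, between -1.05 and -0.49, and the members have theirs between -0.90 and -0.03.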

How the data were processed

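The deposited values are a signal table per population, which the authors made from RNA-seq reads left after removal of ribosomal RNA reads: TPM estimated by kallisto 0.43.0 against the Dresden transcriptome and divided by size factors in Sleuth. They hold no reads, so depth is unknown and no count test was run, and levels can be set side by side per length. No library pair was identical. Values were tested in limma 3.58.1 (R 4.3.3) with an intensity trend on log2(value + 1), for transcripts with a mean of at least 1, with Benjamini-Hochberg adjustment over all tested transcripts. Times were tested within a population on the deposited values (threshold 0.1), populations within a time (0.01) and interactions over 36 libraries (0.1) on libraries rescaled to 1000000. The script was tested on simulated data. A log2 change of 1 was recovered in 53.3% of cases for X1 at 7dS against 1dS. For X1 against Xins it was recovered in 10.5% at 30dS, and in 13.4% for the interaction at 7dS. An uncalled change of this size may therefore have been missed. For a log2 change of 2 the shares were 87.8%, 63.8% and 56.6%. Of the calls made on simulated data, 11.7%, 0% and 4.17% were false. The simulated noise was independent between transcripts and libraries, and few transcripts were changed. In the real data libraries deviated together and calls between populations were common. The simulated shares therefore need not hold for these libraries. Alternatives were the pseudocount, the filter, the scaling, smaller fits, each library left out and a replicate block.

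Same-numbered libraries deviated together across populations at 7dS (correlations 0.48 to 0.84) and 30dS (0.19 to 0.84), but not at 1dS (from -0.24), so blocked values stand beside the 7dS and 30dS results they change. Across times they did so for every number in Xins at 7dS against 1dS (0.46 to 0.71), but not in the other comparisons with 1dS. These correlations are the only source of the pairing. Members and lists were chosen with earlier results of these data known. The named transcripts are all members, the 5 other isomerases, 5 fixed ER genes and, per member, the 3 named transcripts with the highest correlation. Names come from the study's tables. List transcripts given there in another version's numbering were matched by transcript number.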

Additional observations from a re-analysis of the deposited data

Results flagged for a closer look

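The PDIA2 value of the highest Xins library at 7dS, 0.768 normalized TPM against 0.560 for the next, lay apart from the other 3 by a gap of 0.868 of the group's range, above Dixon's critical value for 4 libraries. It was the only such library among 36 groups examined for the 4 members, and chance gives about 1 in 20 groups. The level is under 1 TPM, and what set it apart was not tested.

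The change of PDIA2 at 7dS in X1 minus that in Xins was -0.97 on the log2 scale, and minus that in X2 it was -1.06, both called by the interaction term in limma. In Xins and X2 the values lie near 0, where the log2(value + 1) scale leaves little room for a fall, so that these values largely restate the fall in X1. The difference from Xins was not called with a pseudocount of 0.1 (-1.35, adjusted p = 0.502), and neither was called when all libraries numbered 4 were left out.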

How the results depend on the processing

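Of 1455 fits of a member under an alternative, 68 lost a call, 22 gained one and 0 reversed a call, and 318 of 387 counts stayed within 1.5 times. In X1 the count of members called was 2 at 7dS and at 30dS; it was 1 at both with no filter, after rescaling, with 2 times alone and without libraries numbered 4 (chosen after seeing the data), and 1 at 30dS with quantile normalization. In Xins at 30dS the count of 1 became 0 with no filter, rescaling, quantile normalization and no libraries numbered 4, which gave 1 in X2 at 7dS and 30dS in place of 0. Between populations, X1 against X2 had 1 member in place of 2 at 7dS (median-of-ratios, no libraries numbered 4) and at 30dS (median-of-ratios, no filter). X2 against Xins gave 1 in place of 2 at 1dS (no filter), 0 in place of 1 at 7dS (median-of-ratios, no libraries numbered 4) and 1 in place of 0 at 30dS (median-of-ratios, pseudocount 0.1, replicate block). The interaction at 7dS fell to 0 without libraries numbered 4 in both comparisons and at pseudocount 0.1 against Xins, and that at 30dS for X1 against X2 became 1 with the deposited normalization. The replicate block gave 1 in place of 0 in X2 at 7dS and 30dS (pdia3, adjusted p = 0.00301 and 0.00323), in Xins at 7dS and in the 30dS interactions of X1 against X2 and X2 against Xins (PDIA5, adjusted p = 0.0775 and 0.0253), and pdia3 in X1 at 7dS passed (adjusted p = 0.035). Beside these and the blocked values in the text, the block changed no call of a member. For the pdia3 calls against 1dS, same-numbered libraries did not all deviate together. The lowest correlations were -0.23 in X1 at 7dS and -0.21 and -0.38 in X2 at 7dS and 30dS, so that the block has little basis there. For the PDIA5 interactions the block also paired populations at 1dS. The lowest correlations at 1dS were -0.23 between X1 and X2 and 0.014 between X2 and Xins, so that it has little basis there too. Leaving out 1 library, the counts ran from 1 to 2 in X1 at 7dS and 30dS, 0 to 1 in X2 at 7dS and 30dS and in Xins at 30dS, 1 to 2 in X2 against Xins at 1dS, 0 to 1 at 7dS and 30dS, 1 to 2 in X1 against X2 at 7dS and 1 to 3 at 30dS, and 2 to 3 in X1 against Xins at 7dS and 30dS. The other counts did not move. Depth is unknown, and 4 libraries per group with the spread of pdia3 limit what could be told from no change.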
